A study of Mus musculus with 6 samples.

Results

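The genes described here carry the endoplasmic reticulum stress response and the integrated stress response in mouse lung. They are 33 genes, of 17515 genes with a symbol and 32459 genes and unnamed probes tested in all. Members were taken by name, through probes whose RefSeq transcript belongs to a listed gene, and each gene is given by its brightest probe. They fall into 14 chaperones and folding enzymes, 4 sensors with their transcription factors, 7 genes of degradation and translocation, and 8 genes of the ATF4 branch. All 33 were well above background on all 6 arrays.

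RNA came from whole lungs of 6 male C57BL6 mice aged 10 weeks. Every mouse had gone 16 h without food and had then received lipopolysaccharide (LPS), a component of the outer bacterial membrane, into the peritoneum at a dose of 20 mg/kg to set off endotoxin shock. Of these, 3 mice were given recombinant antithrombin, the plasma inhibitor of thrombin, at 750 IU/kg at 3 h and at 24 h after LPS, and 3 were given saline at those times. Lungs were taken at 30 h. Both groups therefore carry the LPS and the fast, and no mouse without LPS was analysed here. The comparison asks how lung RNA of mice treated with antithrombin differs from that of mice given saline.

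Proteins that enter the endoplasmic reticulum are folded there by chaperones, joined by disulfide bonds and marked with sugars. When unfolded proteins build up, the sensors IRE1, PERK and ATF6 switch on genes for folding and for degradation, a programme called the unfolded protein response. PERK also phosphorylates the translation factor eIF2 alpha, as do kinases that sense viral RNA, lack of amino acids or lack of heme. This shared step, the integrated stress response, slows translation in general and favours that of the transcription factor ATF4, whose targets make and import amino acids or, under lasting stress, promote cell death. In lung the response is best known from secretory cells, among them alveolar type 2 cells, which make surfactant.

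Stress elements known from this pathway were looked for in the promoters. RefSeq promoter sequences of assembly GRCm38.p6, 250 bases before to 50 after the start, were held for 30 of the 33 members (not Manf, Hyou1 or Atf6). The ER stress element (CCAAT, then 9 bases of any kind, then CCACG, searched on both strands) occurred in 9 of the 30, and in 0.119% of all 32851 promoters. The 9 were Hspa5, Hsp90b1, Creld2, Pdia6, Dnajc3, Calr, Canx, Syvn1 and Derl3. The following stretches are shown because they hold the element in chaperone genes of a large, a small and a negative difference, and in Derl3, a degradation gene. Capitals mark the element, which reads CGTGG to ATTGG where it lies on the other strand.
Hspa5, chr2:34772005-34772063, plus strand: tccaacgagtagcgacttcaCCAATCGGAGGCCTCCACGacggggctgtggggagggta
Creld2, chr15:88819500-88819558, plus strand: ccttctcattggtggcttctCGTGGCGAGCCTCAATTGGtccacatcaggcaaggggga
Pdia6, chr12:17266471-17266529, plus strand: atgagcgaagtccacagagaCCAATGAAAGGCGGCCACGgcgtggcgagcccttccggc
Calr, chr8:84847055-84847113, minus strand: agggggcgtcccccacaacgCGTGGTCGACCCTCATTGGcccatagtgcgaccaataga
Dnajc3, chr14:118937807-118937865, plus strand: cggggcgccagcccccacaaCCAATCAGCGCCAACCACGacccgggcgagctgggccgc
Canx, chr11:50325780-50325838, minus strand: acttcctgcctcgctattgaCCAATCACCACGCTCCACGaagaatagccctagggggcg
Derl3, chr10:75893222-75893280, plus strand: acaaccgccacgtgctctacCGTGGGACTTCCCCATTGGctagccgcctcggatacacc

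A shorter form, ER stress element II (ATTGG, 1 base of any kind, CCACG, both strands), was found in Herpud1 and Dnajb11 and in 0.0365% of promoters. The CEBP-ATF element, TGATGNAA on either strand, is the kind of site that ATF4 binds. It occurred in 5 of the 30 members, Trib3, Chac1, Asns, Atf3 and Herpud1, and in 3.97% of promoters. The letters TGACGTGG, a site of ATF6 and XBP1, were in none of the 30 members and in 0.676% of promoters, which says only that they are not in these windows. No site shared a base with a site of another motif. The stretches below show the CEBP-ATF element in 3 ATF4 targets and, in Herpud1, that element followed by ER stress element II, all in capitals.
Asns, chr6:7693210-7693252, minus strand: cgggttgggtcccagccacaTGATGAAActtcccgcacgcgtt
Chac1, chr2:119351029-119351076, plus strand: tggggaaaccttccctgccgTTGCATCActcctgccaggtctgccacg
Atf3, chr1:191183416-191183463, minus strand: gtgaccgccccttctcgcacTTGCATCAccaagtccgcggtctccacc
Herpud1, chr8:94386297-94386407, plus strand: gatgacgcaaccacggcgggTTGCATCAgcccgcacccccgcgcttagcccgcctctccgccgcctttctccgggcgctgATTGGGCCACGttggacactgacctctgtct

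A match in letters is a description, not evidence that a factor binds. Of the 9 members with the ER stress element 8 had a positive antithrombin minus saline difference, with a median of 0.31 on the log2 scale, and of the 21 without it 13 had, with a median of 0.11. The counts mix branches, since 7 of the 9 are chaperones. Among the 12 chaperones with a promoter, 6 of 7 with the element and 5 of 5 without it had a positive difference, with medians of 0.31 and 0.14. When ER stress element II is counted too, those medians were 0.28 with either element and 0.42 without, so the order turned. The CEBP-ATF element stood in members on both sides of 0, from Atf3 (1.37) and Asns (0.47) to Trib3 (-0.28) and Herpud1 (-0.56).

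Signals are log2 intensities less the 75th percentile of the array, so a value below 0 lies below that percentile, and each difference is antithrombin minus saline. The arrays had 69.9% to 72.1% of their probes well above background and 0 saturated spots. Defining lung markers were present, with the surfactant genes Sftpc, Sftpd and Sftpa1 of alveolar type 2 cells well above background on all 6 arrays. Of 9 genes of pancreas, liver and kidney 5 were on none of the arrays well above background. Alb, Cela1 and Ctrb1 were so on all 6, at mean signals of -5.48, 0.14 and -3.73, and Cpa1 on 1. Saline mouse 2 stood apart from its group: across tested genes its array had a mean Pearson r of 0.993 with the antithrombin arrays and of 0.989 with the other saline arrays. Results that rest on it are given with and without it, and its removal by itself tends to widen the gap between the groups. In whole lung, fewer cells of a type and less RNA per cell cannot be told apart.

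Most chaperone genes had a higher signal after antithrombin, the sensors had differences of both signs, and so had the degradation and ATF4 branches, but no single member passed the test. With limma and Benjamini-Hochberg adjustment over all genes tested, 0 of 33 members had an adjusted p under 0.05, against 2 genes or 0.00616% of all tested. The smallest adjusted p of a member was 0.151. A positive difference was found in 24 members and a negative one in 9, with a median of 0.17. Of all genes tested, 43% had a positive difference and their median was -0.05. Shares of all genes, here and below, include unnamed probes. Among the 17515 genes with a symbol, 7944 had a positive difference and the median was -0.03. Of these 17515, 1737 were higher and 2117 lower at an unadjusted limma p under 0.05. At an unadjusted p under 0.05, 11 members were higher, where 8.74% of all genes were, and 1 was lower, where 12.9% were. Members and gene lists were chosen with earlier results of these data known. Counts set beside shares of all genes, here and below, are therefore descriptions and no independent support. The 3 antithrombin mice lay above all 3 saline mice in 15 members, against 10.7% of all genes, and below them in 5, against 18.1%. With saline mouse 2 left out, 7 members passed the adjusted threshold on the higher side, where 4.65% of all genes did. On the lower side 1 member passed, where 5.89% of all genes did. Below, the adjusted p without that mouse is printed for these members alone. The others with an unadjusted p under 0.05 did not pass: Pdia6 (limma adjusted p = 0.0586 without it), Derl3 (0.137), Manf (0.139) and Hspa5 (0.183). The 11 higher members became 7 without saline mouse 1, antithrombin mouse 1 or antithrombin mouse 3.

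**Figure D1:**
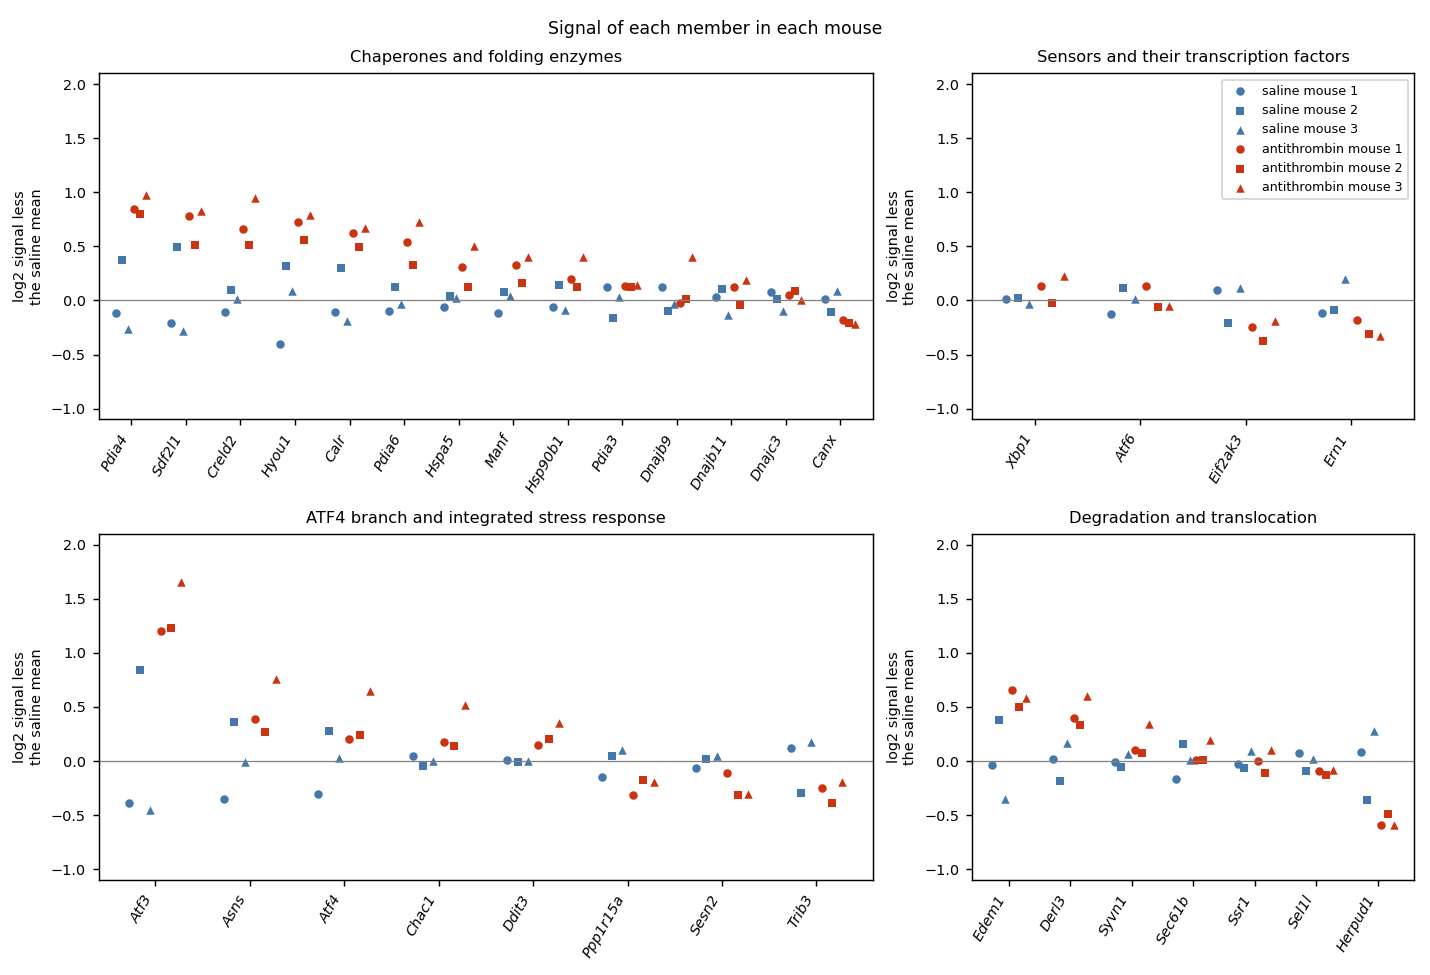
Signal of the 33 members in each mouse, as log2 less the mean of the 3 saline mice, with 1 panel per branch and genes ordered by their difference. Blue symbols are saline mice and red symbols antithrombin mice. Before the saline mean is taken off, the highest saline mouse of Pdia4 stood at -0.16 and the lowest antithrombin mouse at 0.26. All red symbols lie above all blue ones in 9 of 14 chaperones, against 10.7% of all genes. The groups all but touch in Pdia3 (lowest antithrombin mouse 3.4358, highest saline mouse 3.4353) and in Sdf2l1 (1.57 and 1.55).

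Chaperones and folding enzymes formed the most one-sided branch. A positive difference was seen in 13 of 14 and the median was 0.30. At an unadjusted p under 0.05, 8 were higher and 0 lower, against 8.74% and 12.9% of all genes. The branch mean, less the saline mean, stood at -0.06, 0.12 and -0.06 in saline mice 1, 2 and 3 and at 0.36, 0.26 and 0.48 in antithrombin mice 1, 2 and 3, so saline mouse 2 was the saline mouse nearest to the treated ones and antithrombin mouse 3 was the highest of all. Markers of neutrophils also had saline mouse 2 as the highest saline mouse and all antithrombin mice above it, with list means of -0.20, 0.35 and -0.15 against 0.60, 0.53 and 0.50, and their part in the result was not tested.

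Disulfide isomerases, which form and shuffle the disulfide bonds of client proteins, included the largest difference of the branch. Pdia4 stood at -0.66, -0.16 and -0.80 in saline mice 1, 2 and 3 and at 0.31, 0.26 and 0.43 in antithrombin mice 1, 2 and 3. All antithrombin mice lay above all saline mice, and saline mouse 2 was the closest to them. The difference was 0.87 (SE 0.18, 1.83-fold), with a limma adjusted p of 0.151 with all mice and 0.0243 without saline mouse 2. Pdia6 measured 5.24, 5.47 and 5.31 after saline and 5.88, 5.67 and 6.06 after antithrombin. Again no mouse of one group fell among the other, and the difference was 0.53 (SE 0.14, limma adjusted p = 0.156). Pdia3, which works on sugar-bearing proteins together with the lectins Calr and Canx, gave 3.44, 3.15 and 3.34 against 3.44, 3.44 and 3.45. Its antithrombin mice were nearly alike and lay above saline mouse 1 only past the second decimal, with a difference of 0.14 (SE 0.11, limma adjusted p = 0.495).

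The chaperones of the BiP cycle bind and release unfolded stretches with the use of ATP. Hspa5, which encodes BiP itself and is the usual gauge of this response, measured 5.71, 5.81 and 5.80 in saline mice and 6.08, 5.90 and 6.28 in antithrombin mice. The groups did not overlap, yet antithrombin mouse 2 was close to saline mice 2 and 3. The difference was 0.31 (SE 0.13, 1.24-fold, limma adjusted p = 0.225). At the second brightest Hspa5 probe the groups overlapped, with saline mouse 2 at 4.105 and antithrombin mouse 2 at 4.066. Hyou1, a partner that exchanges the nucleotide of BiP, was dim at -4.24, -3.52 and -3.75 after saline and -3.11, -3.28 and -3.05 after antithrombin. Saline mouse 1 was the lowest and all antithrombin mice were above the saline mice, with a difference of 0.69 (SE 0.20, limma adjusted p = 0.161, or 0.0434 without saline mouse 2). With normexp background correction the Hyou1 difference was 0.29 and its unadjusted p no longer under 0.05. At the second brightest Hyou1 probe the groups overlapped, with saline mouse 2 at -3.437 and antithrombin mouse 3 at -3.462. Sdf2l1, which works with BiP and its cochaperone Dnajb11, measured 0.85, 1.55 and 0.78 against 1.84, 1.57 and 1.89. Here saline mouse 2 reached almost the level of antithrombin mouse 2, far above the other saline mice, and the difference was 0.71 (SE 0.23, limma adjusted p = 0.174, or 0.0289 without saline mouse 2).

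Manf and Creld2 encode proteins of the endoplasmic reticulum that are also secreted under stress. Manf gave 2.47, 2.66 and 2.62 after saline and 2.91, 2.74 and 2.99 after antithrombin, a separation without overlap but narrow between saline mouse 2 and antithrombin mouse 2. Its difference was 0.30 (SE 0.12, limma adjusted p = 0.216). Creld2 had the smallest unadjusted p of the members, with 3.74, 3.93 and 3.85 in saline mice and 4.50, 4.35 and 4.79 in antithrombin mice. The saline mice were close together and the lowest antithrombin mouse was well above them, for a difference of 0.71 (SE 0.14, 1.63-fold) and a limma adjusted p of 0.151, or 0.0442 without saline mouse 2.

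The lectin chaperones hold proteins that carry sugars, and the pair differed in sign. Calr, which encodes soluble calreticulin, was at 3.72, 4.13 and 3.63 in saline mice and 4.45, 4.32 and 4.50 in antithrombin mice. It did not overlap between groups, saline mouse 2 was again the highest saline mouse, and the difference was 0.59 (SE 0.16, limma adjusted p = 0.156, or 0.0297 without saline mouse 2). Canx, its membrane-bound relative calnexin, stood at 4.97, 4.84 and 5.04 against 4.77, 4.74 and 4.73, with all antithrombin mice below all saline mice. That difference was -0.20 (SE 0.10, limma adjusted p = 0.292), but a second Canx probe gave 0.21, so the direction for Canx is not settled by these probes. Both genes hold the ER stress element shown above. Hsp90b1, the HSP90 of the endoplasmic reticulum, had a difference of 0.24 (SE 0.13), and the BiP cochaperones Dnajb9, Dnajb11 and Dnajc3 had differences of 0.13, 0.09 and 0.05, each with a 95% interval that spans 0.

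**Figure D2:**
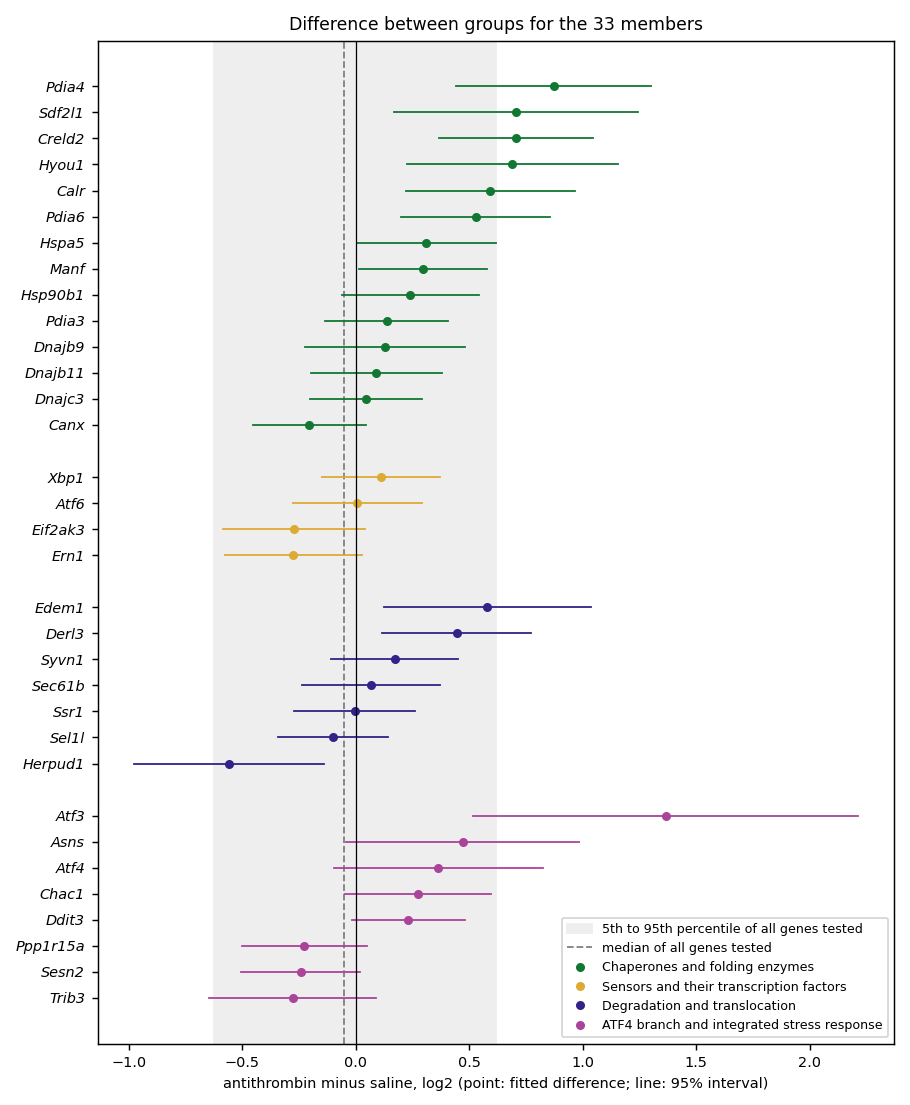
Antithrombin minus saline difference of each member on the log2 scale, with the 95% interval of the limma fit, coloured by branch. The grey band spans the 5th to 95th percentile of all genes tested (-0.63 to 0.62) and the dashed line is their median of -0.05. Of the 33 members, Atf3, Pdia4, Sdf2l1, Creld2 and Hyou1 lie above the band and none lies below it.

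Among the sensors no common direction was seen. Differences were positive in 2 of 4 and negative in 2, with a branch median of -0.13, and 0 reached an unadjusted p under 0.05. Xbp1, the transcription factor whose RNA is spliced by IRE1, measured 5.66, 5.67 and 5.61 after saline and 5.78, 5.63 and 5.87 after antithrombin. At this probe the groups overlapped, with a difference of 0.11 (95% interval -0.15 to 0.37). The other Xbp1 probes gave 0.30 and 0.38 without overlap (limma, unadjusted p = 0.0714 and 0.0179). Spliced and unspliced Xbp1 RNA were not told apart here.

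Ern1, which encodes the sensor IRE1 alpha, stood at -1.00, -0.97 and -0.68 in saline mice and -1.07, -1.20 and -1.21 in antithrombin mice. All antithrombin values lay below all saline values, and the difference was -0.28 (SE 0.13, limma adjusted p = 0.257), or -0.17 without saline mouse 3. Eif2ak3, which encodes PERK, gave 1.08, 0.77 and 1.10 against 0.74, 0.61 and 0.79. Saline mouse 2 lay among the antithrombin mice, so the groups overlapped, and the difference was -0.27 (SE 0.13, limma adjusted p = 0.276). Atf6 measured 1.10, 1.34 and 1.24 after saline and 1.37, 1.16 and 1.18 after antithrombin, mixed between the groups, with a difference of 0.01 and a 95% interval of -0.28 to 0.29. The sensors act through splicing, phosphorylation and cleavage, none of which these RNA levels measure.

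Genes of degradation, which pull misfolded proteins back into the cytosol for the proteasome, had differences of both signs. The 7 genes of degradation and translocation had 4 positive and 3 negative differences and a median of 0.07, which became -0.02 without saline mouse 1, 0.14 without saline mouse 2 and 0.01 without antithrombin mouse 3. Edem1, which trims mannose from proteins that have failed to fold, stood at 1.53, 1.95 and 1.21 in saline mice and 2.22, 2.06 and 2.15 in antithrombin mice. The groups did not overlap and saline mouse 2 was near the treated mice. The difference was 0.58 (SE 0.19, limma adjusted p = 0.179, or 0.0347 without saline mouse 2), and a second probe gave 0.22 with overlap between the groups. Derl3, a derlin of the channel through which proteins leave, measured -2.93, -3.13 and -2.78 against -2.55, -2.61 and -2.34. It was a dim probe, with every antithrombin mouse above every saline mouse and a difference of 0.44 (SE 0.14, limma adjusted p = 0.17), or 0.26 with normexp background correction.

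Herpud1, which encodes a scaffold of the ubiquitin ligase complex and is normally counted among the responders of this pathway, lay on the other side. Its signal was 4.60, 4.14 and 4.78 in saline mice and 3.92, 4.02 and 3.91 in antithrombin mice. All antithrombin mice were lower than all saline mice, and saline mouse 2 was the lowest of its group. The difference was -0.56 (SE 0.18, 1.47-fold lower, limma adjusted p = 0.172, or 0.0305 without saline mouse 2), and a second probe gave -0.50. Its promoter stretch above holds both a CEBP-ATF element and ER stress element II. Syvn1, the ubiquitin ligase HRD1, gave 4.13, 4.08 and 4.20 against 4.24, 4.22 and 4.48, a separation of 0.17 (SE 0.12, limma adjusted p = 0.411) in which antithrombin mouse 3 stood above the rest. Its adaptor Sel1l had a difference of -0.10. Sec61b of the translocation channel and Ssr1 of the translocon-associated complex had differences of 0.07 and 0.00, with 95% intervals of -0.23 to 0.37 and -0.27 to 0.26.

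The ATF4 branch was also split. Differences were positive in 5 of 8 genes and negative in 3, with a median of 0.25. At an unadjusted p under 0.05, 1 was higher and 0 lower, against 8.74% and 12.9% of all genes. The branch mean was -0.14, 0.15 and -0.01 in saline mice and 0.18, 0.15 and 0.41 in antithrombin mice, so saline mouse 2 was as high as antithrombin mouse 2 to 2 decimals. Atf4 itself stood at 6.24, 6.81 and 6.57 after saline and 6.74, 6.78 and 7.19 after antithrombin. Saline mouse 2 lay above antithrombin mice 1 and 2, so the groups overlapped, and the difference was 0.36 (SE 0.19, limma adjusted p = 0.308). It was 0.21 without saline mouse 1 and 0.22 without antithrombin mouse 3. A second, dimmer Atf4 probe gave 0.43 without overlap (limma, unadjusted p = 0.0289). ATF4 is set mainly at translation, which arrays do not measure.

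Atf3, a transcription factor induced by many kinds of stress, had the largest difference of the 33 genes. It measured -0.23, 1.00 and -0.30 in saline mice and 1.36, 1.39 and 1.81 in antithrombin mice. Saline mouse 2 was far above the other saline mice and below all antithrombin mice. The difference was 1.37 (SE 0.36, 2.58-fold), with a limma adjusted p of 0.156, or 0.0243 without saline mouse 2, where the difference was 1.79. Ddit3, which encodes the death-promoting factor CHOP, gave -0.26, -0.28 and -0.27 against -0.12, -0.07 and 0.08. Its saline mice were almost identical and all antithrombin mice lay above them, by 0.23 on average (SE 0.10, 1.17-fold, limma adjusted p = 0.25). Chac1, which breaks down glutathione, was at -0.42, -0.52 and -0.48 after saline and -0.30, -0.34 and 0.05 after antithrombin, without overlap but mainly through antithrombin mouse 3. The difference was 0.28 (SE 0.13, limma adjusted p = 0.277), or 0.15 without antithrombin mouse 3.

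In the remaining members of the branch the antithrombin mice were not uniformly higher. Ppp1r15a, whose product GADD34 removes the phosphate from eIF2 alpha, measured 3.45, 3.65 and 3.71 in saline mice and 3.29, 3.43 and 3.41 in antithrombin mice. No antithrombin mouse reached the lowest saline mouse, and the difference was -0.23 (SE 0.12, limma adjusted p = 0.297). Sesn2, a stress-induced inhibitor of mTORC1, gave 1.35, 1.44 and 1.46 against 1.30, 1.11 and 1.11, likewise without overlap, with a difference of -0.24 (SE 0.11, limma adjusted p = 0.251). Trib3, a pseudokinase that binds ATF4, had a difference of -0.28 (SE 0.15), and Asns, the synthetase of asparagine, one of 0.47 (SE 0.22), both with overlap between the groups. Trib3 was at -0.42 without saline mouse 2 and Asns at 0.30 without saline mouse 1. A second, dimmer Asns probe gave 0.62 without overlap (limma, unadjusted p = 0.00745).

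Several members were measured by more than 1 probe, which gives repeat readings within the same mice. Of 52 member probes, 33 were the brightest of their gene and 19 were others, in 15 genes. The other probe had the sign of the brightest in 15 of 19 cases. Other probes gave 0.29 and 0.38 for Hspa5, 0.57 and 0.74 for Hyou1, 0.36 for Manf, 0.43 for Atf4 and 0.62 for Asns. Counts of members and of members without overlap use the brightest probe. Whether the groups overlapped changed with the probe for Xbp1, Atf4, Asns, Hspa5, Hyou1 and Edem1, among others. The 4 probes of opposite sign belonged to Dnajb11 (-0.08 and -0.63), Canx (0.21) and Ssr1 (0.06).

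**Figure D3:**
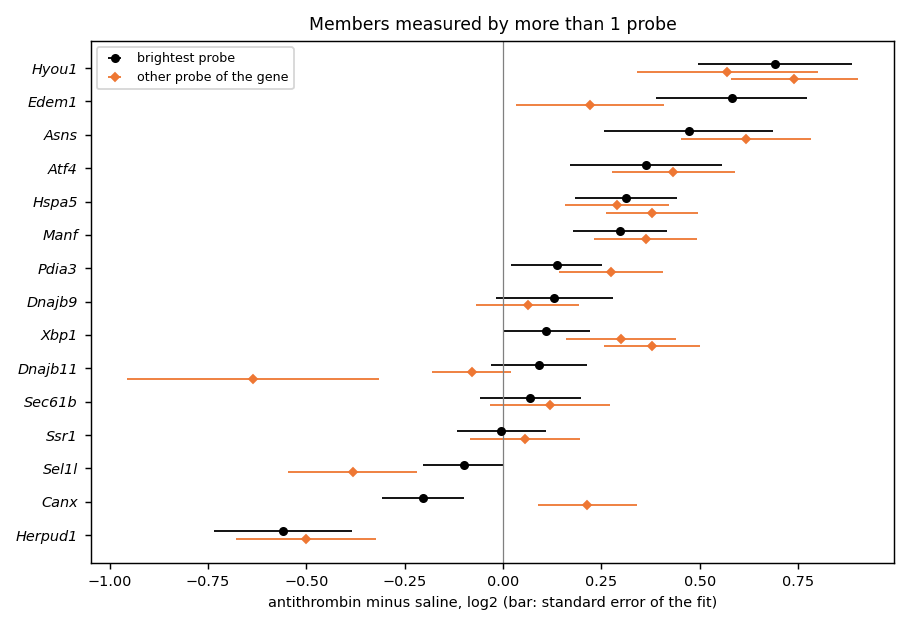
Antithrombin minus saline difference for each probe of the 15 members with more than 1 probe, on the log2 scale, with the standard error of the fit. Black circles are the brightest probe of a gene and orange diamonds its other probes. The probes of Canx fall on both sides of 0, and so do those of Dnajb11 and Ssr1.

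The rest of the pathway was taken from 5 further lists. None of the genes of the 5 further lists passed the adjusted threshold (limma, smallest adjusted p = 0.153), so each list is given by its counts at an unadjusted p under 0.05. Over all genes tested, 8.74% were higher and 12.9% lower at that p. Among 30 further folding and glycan-processing genes 19 had a positive difference, the median was 0.12, and an unadjusted p under 0.05 was found for 4 on the higher and 2 on the lower side. Of those with the smallest p, Stt3a (0.43, SE 0.11) and Rpn1 (0.32, SE 0.10) belong to the enzyme that attaches the sugar tree to proteins. The other 4 listed genes for this kind of enzyme, Stt3b (-0.04), Dad1 (-0.09), Rpn2 (0.08) and Ddost (0.14), did not reach that p. Mogs (0.45, SE 0.13) trims the first glucose from that tree. Fkbp14, a prolyl isomerase for collagen, was at -0.43 (SE 0.16).

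Further degradation genes leaned to neither side. Of 20 genes, 10 had a positive and 10 a negative difference, and the median was -0.02. At an unadjusted p under 0.05 there was 1 on the higher side and 4 on the lower, where 12.9% of all genes were. Those with the smallest p were the ATPase Vcp (-0.27, SE 0.11) and its cofactors Nploc4 (-0.47, SE 0.11) and Ufd1 (-0.45, SE 0.12), whose antithrombin mice lay below all saline mice, as in 18.1% of all genes, and Derl1, a derlin like Derl3, with 0.41 (SE 0.14). Of 21 genes of translocation and signal peptide cleavage 10 were positive, with a median of -0.01. At that p 2 were higher and 2 lower, against 8.74% and 12.9% of all genes. The receptor subunit Srprb (0.49) and the signal recognition particle subunit Srp54a (0.51) were on the higher side, and Srp9 (-0.27) and Sec63 (-0.37) on the lower side.

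Further targets of ATF4 lie in amino acid synthesis, uptake and loading onto transfer RNA, and in cell death. Of 32 listed genes 30 were tested (Fgf21 was on none of the 6 arrays well above background, and no probe was matched to Pycr1), 19 had a positive difference and the median was 0.09. With an unadjusted p under 0.05 there were 9 on the higher and 2 on the lower side, against 8.74% and 12.9% of all genes. The antithrombin mice lay above all saline mice in 11 and below them in 3, against 10.7% and 18.1%. Without saline mouse 2, the limma adjusted threshold was passed by 6 on the higher side and 1 on the lower, against 4.65% and 5.89%. Mthfd2, an enzyme of mitochondrial folate metabolism, stood at -1.11, -0.34 and -1.26 in saline mice and 0.31, 0.06 and 0.36 in antithrombin mice, with the groups apart and a difference of 1.14 (SE 0.25, limma adjusted p = 0.153). Psat1, of serine synthesis, had a difference of 0.73 (SE 0.17, limma adjusted p = 0.153). Ddit4, an inhibitor of mTORC1 like Sesn2, measured 5.74, 5.34 and 6.09 against 4.86, 4.60 and 3.68, lower in every antithrombin mouse, with a difference of -1.34 (SE 0.33, limma adjusted p = 0.155). The lipoprotein receptor gene Vldlr was at -0.63 (SE 0.16).

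Other sensors, kinases and regulators numbered 27, of which 16 had a positive difference, with a median of 0.05. An unadjusted p under 0.05 was reached by 4 of the higher and 1 of the lower genes, against 8.74% and 12.9% of all genes. Atf6b, the close relative of Atf6, had a difference of 0.62 (SE 0.20), Eif2s1, which encodes eIF2 alpha, 0.54 (SE 0.21), and Creb3l4, a membrane-bound transcription factor, 0.46 (SE 0.18). Eif2ak4, which encodes the amino acid sensor GCN2, was at -0.31 (SE 0.12). The other listed kinases of eIF2 alpha, Eif2ak1 and Eif2ak2, had differences of 0.05 and 0.16.

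**Figure D4:**
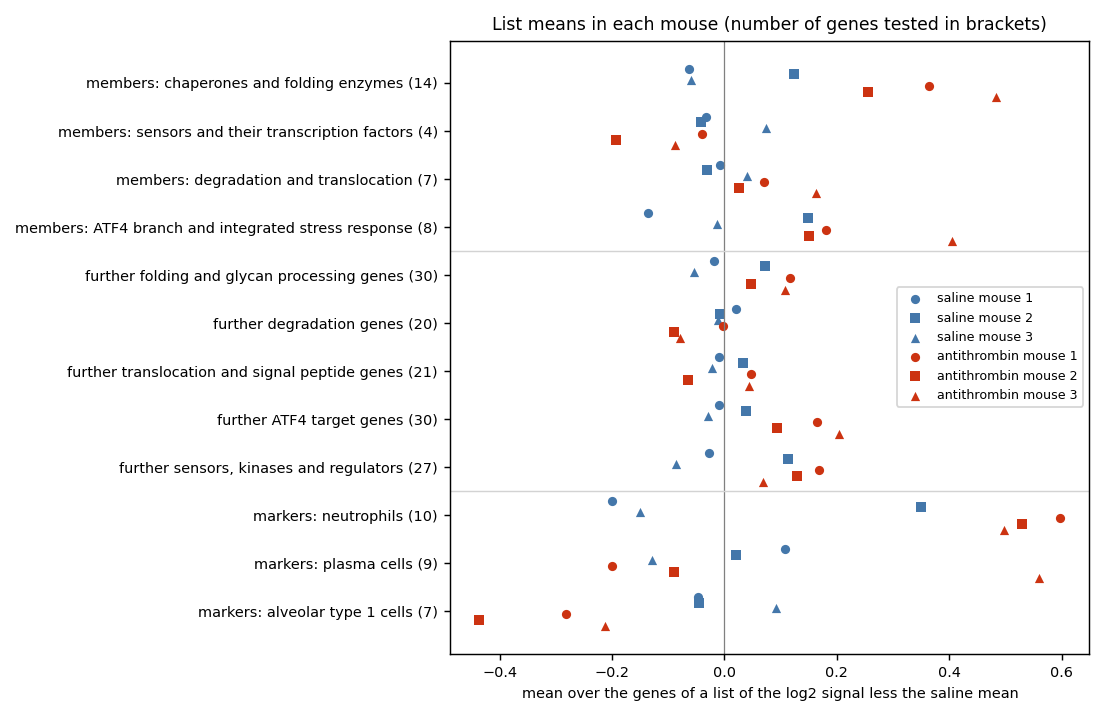
Mean of each gene list in each mouse, as log2 signal less the saline mean, for the 4 branches, the 5 further lists and 3 lists of cell type markers. Blue symbols are saline mice and red symbols antithrombin mice. The antithrombin mice stand above the saline mice for the chaperones (0.26 against at most 0.12) and for neutrophil markers (0.50 against at most 0.35). They also do for the further ATF4 targets (0.09 against at most 0.04) and barely for the ATF4 branch (0.151 against at most 0.149). Alveolar type 1 markers are on the lower side.

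The order of the mice within the members was not even. Antithrombin mouse 3 was the highest of the 6 mice in 22 of 33 members and in 12 of 14 chaperones. Saline mouse 2 was the highest saline mouse in 17 members, 10 of them chaperones, and the lowest in 12. Plasma cells, whose secretory load calls on several of these genes, were checked by 10 markers, of which 9 were tested and Tnfrsf17 was on none of the 6 arrays well above background. Their list mean was 0.11, 0.02 and -0.13 in saline mice and -0.20, -0.09 and 0.56 in antithrombin mice, high in antithrombin mouse 3 alone, while the sum of their linear signals ran from 12.8 to 14.6 after saline and from 12.2 to 13.1 after antithrombin. That sum rests mainly on Fcrl5 and Sdc1, at mean signals of 2.98 and 1.84, and hardly follows the other markers, all below 0. The brightest markers, Fcrl5, Sdc1 and Prdm1, had differences of -0.05, -0.35 and -0.28. Jchain (1.01, SE 0.41) and Slamf7 (0.60, SE 0.23) had the opposite sign and were the 2 of the list with an unadjusted p under 0.05. They are named after their values were seen, both were dim, and antithrombin mouse 3 was the highest mouse in each.

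Neutrophil markers had a positive difference in 9 of 10 tested genes (Ly6g had no matched probe), with a median of 0.46, and their summed linear signal ran from 928 to 1150 after saline and from 1090 to 1270 after antithrombin. S100a9, S100a8 and Csf3r, the brightest, had differences of 0.14, 0.29 and -0.01. At an unadjusted p under 0.05, 4 were higher and 0 lower, against 8.74% and 12.9% of all genes. These were Camp (1.21), Mmp8 (0.79), Cxcr2 (0.67) and Mmp9 (0.50), named after their values were seen. Alveolar type 1 markers had a negative difference in 6 of 7 tested genes, and 4 were lower and 0 higher at that p. Their sum ran from 316 to 349 after saline and from 237 to 276 after antithrombin. Endothelial markers had a negative difference in 9 of 10 genes. Positive differences were found in 9 of 10 monocyte and macrophage, 6 of 10 alveolar macrophage and 6 of 10 fibroblast markers. Markers of alveolar type 2 cells overlapped, with sums from 1550 to 1650 after saline and from 1420 to 1620 after antithrombin. Those of airway secretory cells did too, from 770 to 1290 and from 1060 to 1280, and saline mouse 1 was the lowest there. Their list mean was -1.88 in that mouse, 1.29 and 0.59 in saline mice 2 and 3, and 1.32, 1.46 and 0.37 after antithrombin. Scgb3a1 stood at 0.89 in saline mouse 1 and from 6.90 to 8.05 in the other mice. Scgb1a1, the brightest, was at 9.22 in saline mouse 1 and from 9.13 to 9.33 in the others. The part of these cell types in the values of the members was not tested.

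The signs of the branch medians were followed through 20 other ways of processing. The chaperone median was positive under all 20 alternatives and that of the ATF4 branch was too, the median of the sensors was negative under all 20, and the degradation median was negative under 1 of them, without saline mouse 1. Of 33 members 26 kept their sign under all alternatives. Those that did not were Ssr1, Dnajb11, Atf6, Canx, Dnajb9, Dnajc3 and Sec61b.

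**Figure D5:**
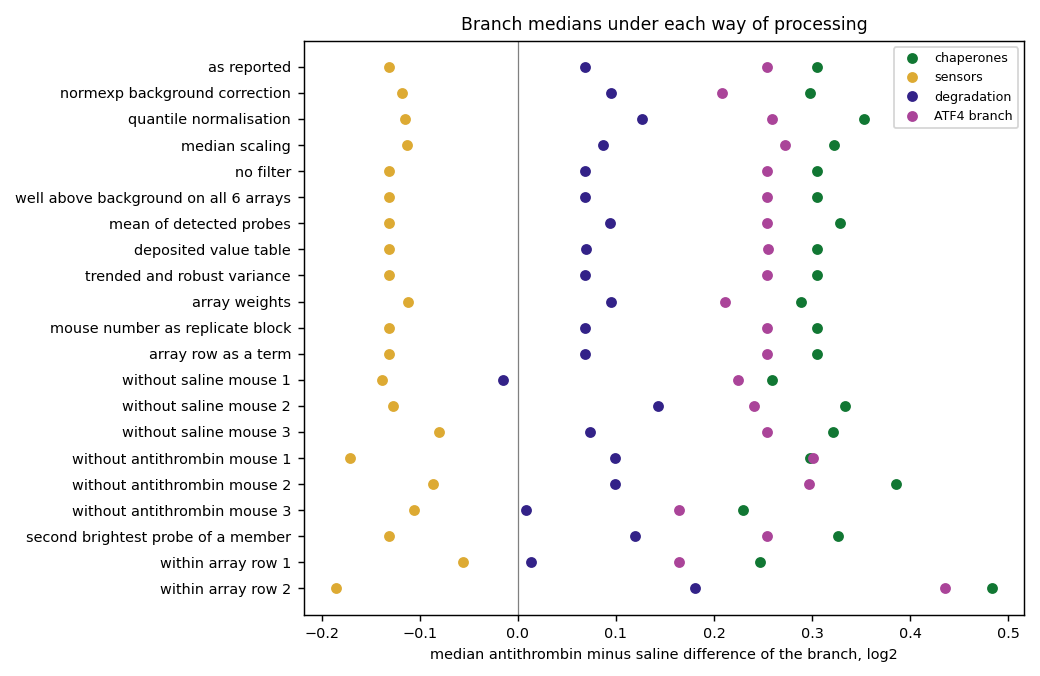
Median antithrombin minus saline difference of each branch, on the log2 scale, under the values as reported and under 20 other ways of processing. The chaperone medians (green) lie to the right of 0 in each row and those of the sensors (yellow) to the left, and the degradation median (dark blue) crosses 0 without saline mouse 1.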

How the data were processed

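Lung RNA of 6 mice was measured on one-colour Agilent arrays, 1 array per mouse and 3 per group. Groups and mouse numbers come from the sample titles, which name separate mice. Each deposited scanner file gives intensity values by spot, extracted with Agilent Feature Extraction 10.7.3.1 per the file headers, whereas the submitters' processing notes give version 9.1. Processed signals have the background taken off but no scaling from array to array. A further deposited file gives the authors' log2 values by probe. Once their offset per probe and per array was removed, these equalled the log2 processed signals within 0.01 for 100% of 56562 probes, so the scaling and the centring of that file stay unknown. Its column medians ran from -0.0372 to 0.077.

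From each log2 processed signal the array's 75th percentile of non-control probes was subtracted. Control spots and 541 outlier spots were dropped, and repeated spots of a probe were averaged. Probe accessions, without their versions, were looked up among RefSeq transcripts, which named 32994 of 56605 probes. A gene is given by its brightest probe. It was tested if at least 3 arrays had it well above background, which left 32459 genes and unnamed probes. Group differences were fitted with limma 3.58.1 (lmFit, eBayes; R 4.3.3). Tests are two-sided, p-values were adjusted by Benjamini-Hochberg over the whole table, and the threshold was 0.05. The fit was checked on simulated data. Standard errors and 95% intervals come from the fit, and the number of arrays limits the precision. Since all 6 arrays lay on 1 slide with 1 scan time, array row was tried as a term.

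The members and gene lists were chosen with earlier results of these data known. Every member is accounted for, with values in every mouse for those whose groups do not overlap or whose unadjusted p is under 0.05, and for the sensors, Atf4 and Ddit3. From each further list up to 4 genes with the smallest p are named, which is a choice by result, and from marker lists at most 3 with the highest signal. Plasma cell and neutrophil markers with an unadjusted p under 0.05 were named besides, also by result. Promoter sequences are RefSeq's, of assembly GRCm38.p6, and were joined to the arrays by symbol only, since the array design was built on another assembly. Alternatives covered the background correction (normexp on median signals, offset 50), the scaling (quantile or median), the filter (none or stricter), the mean over probes, the authors' log2 file, the variance model, array weights, the mouse number or array row in the fit, and leaving out each mouse. The second brightest probe and each array row by itself were added after the data were seen. Figures were drawn with matplotlib 3.10.9.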

Additional observations from a re-analysis of the deposited data

How the results depend on the processing

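No member passed the adjusted threshold (limma) under any alternative except without saline mouse 2, where 8 did. That mouse lay nearest the antithrombin mice, so this is no separate support. Over all genes, 2 passed, against 1 with normexp, quantile normalisation, median scaling, no filter, the stricter filter, the trended and robust variance or the array row as a term. Leaving out each mouse gave 0 to 3421. Members past the adjusted threshold ran from 0 to 8 when each mouse was left out, members higher at an unadjusted p under 0.05 (11) from 7 to 13, and members lower (1) from 0 to 4. The lower count was 3 with normexp, the trended and robust variance or array weights. The degradation median was 0.127 with quantile normalisation and ran from -0.0155 to 0.143 when each mouse was left out.

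The labels do not say that equal mouse numbers mark anything shared, though same-numbered mice lay in the same array row. The deviations of same-numbered mice correlated at -0.00954, -0.164 and -0.276. Deviations within a group are bound to sum to 0, so these values do not settle whether mice were paired. With the mouse number as a replicate block 0 genes passed the adjusted threshold and 9 members were higher. Within array row 1, 0 genes passed, 3 members were higher and 0 lower, and the median of the sensors was -0.0556. Array row 2 holds 1 mouse of each group and gives no test. There the median was 0.344 for all members, 0.483 for chaperones, 0.181 for degradation and 0.435 for the ATF4 branch.

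Over the 33 members and 20 alternatives, 632 of 660 values kept their sign and their side of the threshold, 8 moved past it (all without saline mouse 2) and 20 changed sign. For Ssr1 the difference became 0.00399 with normexp, 0.0427 with quantile normalisation, 0.014 with median scaling, 0.0259 with the mean of probes, 0.0558 with the second probe and 0.00333 within array row 2. For Dnajb11 it became -0.208, -0.0801 and -0.0264 with the mean of probes, the second probe and within array row 1, and for Canx 0.00552 and 0.215 with the mean of probes and the second probe. Dnajb9 was at -0.0202 within array row 1 and Atf6 at -0.0625 within array row 2. The cause was not tested. When each mouse was left out, Ssr1 ran from -0.0554 to 0.0516, Dnajb9 ran from -0.00459 to 0.206, Atf6 ran from -0.058 to 0.0651, Sec61b ran from -0.0155 to 0.149 and Dnajc3 ran from -0.00312 to 0.0876. No scaling moved the median of all genes (-0.0531) by 0.1. The share of higher genes among those with an unadjusted p under 0.05 was 40.4%, against 35% with normexp and 48.3% with quantile normalisation.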
